A study of Sus scrofa with 44 samples.

Results

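Longissimus dorsi, the long back muscle, was compared between pig fetuses at 60 and 95 days post coitus (E60 and E95). Per the labels, each stage is represented by 3 input samples of rRNA-depleted total RNA and 3 samples enriched for N6-methyladenosine (m6A) with an antibody from Synaptic systems, 12 of the 44 samples of the series. The input samples gave expression values in TPM, transcript counts per length on a common library total, and the immunoprecipitated samples gave 1 list of m6A peaks per stage. The remaining samples are the same muscle at 33, 40, 50 and 70 days and a pig kidney cell line, PK15. The groups differ in stage alone as far as the labels go. Breed, sex, litter and whether the 3 samples of a stage came from different fetuses are not given in the sources used here. The p-values therefore measure a spread between samples of a stage that may be technical. This spread was pooled over the 18 input libraries of the 6 stages in the fit. The members of the comparison are the 12829 of 22427 genes that averaged 1 TPM or more across these 6 libraries, of which 10441 have a symbol.

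In pig muscle, fibres form in successive waves before birth, and the fibres already formed then exchange embryonic for later forms of their contractile proteins, grow by adding sarcomeres, and take up the enzymes of energy metabolism. Sarcomeric proteins are encoded by small gene families whose members are used at different ages or in slow and fast fibres. m6A is a methylated adenosine in mRNA, found most often near stop codons and in long exons within a short motif such as GGACT. It is written by a complex built around METTL3 and METTL14 and bound by reader proteins.

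Muscle transcripts were abundant in all 6 libraries, with ACTA1, the skeletal actin, at 1591 scaled TPM or more and DES, desmin, at 548 or more. Every file sums to 1000000 TPM, so the depth behind a value is unknown and intervals for counting error could not be computed. A single gene without a symbol, ENSSSCG00000032395, took 50.96% to 59.5% of the TPM of an E60 library and 60.5% to 66.9% of an E95 library. Genes with at least 1 TPM numbered 12886 to 13020 at E60 and 10876 to 12156 at E95. In TPM as deposited the median gene stood 0.69 lower at E95 on the log2(TPM + 1) scale, and still 0.46 lower after the 2 most abundant genes were left out of the total. Libraries were scaled by the median ratio over 13993 genes, with factors of 1.19 to 1.32 at E60 and 0.575 to 0.871 at E95. Levels below are scaled TPM, and changes are on the log2(scaled TPM + 1) scale, which understates the change of low genes, with the standard error (SE) of the fit. A gene was called higher or lower at a Benjamini-Hochberg adjusted p under 0.05 in limma, over all 12829 genes.

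At E95 1837 genes were higher than at E60, which is 14.3% of those tested, and 1545 were lower, which is 12%. The median change of all genes was 0.01 on this scale and the median SE was 0.16. Of the genes called higher, 544 changed by more than 1 on the log2 scale, and 319 of the genes called lower fell by more than 1. The direction of a small rise depended on the scaling. Of the 1837 genes called higher, 866 were above E60 under all 4 scalings tried, whereas all 1545 genes called lower were below it. Genes called higher made up 54.3% of the calls with median-ratio scaling, 43.3% after quantile normalization, 10.9% with TPM as deposited and 9.37% when the 2 most abundant genes were taken out of the library total. With TPM as deposited, 63 genes were called higher (0.491%) and 515 lower (4.01%), and without those 2 genes 557 were higher (4.34%) and 5385 lower (42%). Libraries of the stages did not overlap for 38.9% of all genes tested, and for 1773 of the 1837 genes called higher and 1495 of the 1545 called lower. Called in the same direction under all 4 scalings were 63 genes higher and 478 lower. Each gene group below is therefore given with the number of its calls that kept their sign under the 4 scalings. Its counts are to be read against the 14.3% and 12% of all genes. The level at 70 days (E70) lay between those of E60 and E95 for 86.1% of the genes called higher and 82.3% of those called lower. E70 took no part in the contrast, but its libraries were part of the fit. No such share is given for genes not called, so these shares are not an independent check of the calls.

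**Figure D1:**
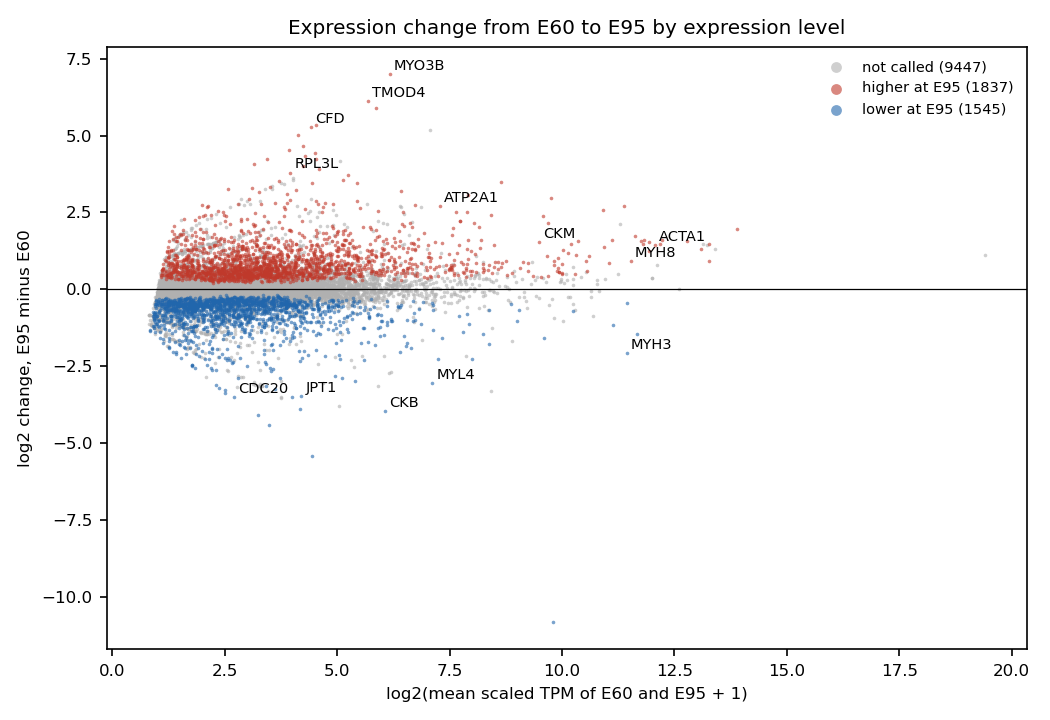
Change from E60 to E95 for each of the 12829 tested genes (vertical axis, log2 scale) against its mean scaled TPM over both stages (horizontal axis, log2 of the mean plus 1). Red points are the 1837 genes called higher at E95, blue points the 1545 called lower and grey points the rest, with 13 genes of the text named; the lowest point is ENSSSCG00000035520, listed at 0 at E95.

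Among the contractile proteins measured, fast-fibre and later forms rose and several embryonic or cardiac forms fell. Of the slow forms, MYL3 and MYH7B fell, and MYL2, MYBPC1, TNNI1, TNNC1 and TNNT1 were not called. The adult heavy chains MYH1, MYH2, MYH4 and MYH7 had no match by symbol and gave no value. Of 14 tested genes of myosins and the thick filament, 5 were higher and 5 lower, against 14.3% and 12% of all genes. Of these, 4 of the 5 and 5 of the 5 kept their sign under all scalings. TPM as deposited called 1 higher and 5 lower, quantile normalization 3 and 5, and totals without the 2 most abundant genes 2 and 7. MYH3, the embryonic myosin heavy chain, had scaled TPM of 3571, 5132 and 4774 at E60 and 881, 1332 and 974 at E95. Every E95 library was below every E60 library (log2 change -2.08 ± 0.18, adjusted p = 1.9e-06). MYH8, the perinatal heavy chain, had 1515, 2128 and 2583 at E60 and 3824, 3682 and 3940.4 at E95 and rose in all 3 E95 libraries (log2 change 0.91 ± 0.19, adjusted p = 0.0032). The embryonic and atrial light chain MYL4 fell from 197, 264 and 266 to 46.5, 37.8 and 12.7 (log2 change -3.04 ± 0.34, adjusted p = 1.6e-05), while MYL1, the fast light chain, rose from 274, 297 and 321 to 511, 670.5 and 509 (log2 change 0.91 ± 0.15, adjusted p = 4.4e-04). The slow and ventricular light chain MYL3 fell by 1.14 and the slow-type heavy chain MYH7B fell by 1.83 on the log2 scale. MYL2, another slow light chain, was not called (log2 change 0.15 ± 0.24).

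Myosin-binding proteins, which lie along the thick filament and tune the interaction of myosin with actin, changed in different directions. MYBPC2, the fast form, was low at E60, with 0.711, 1.36 and 0.962 scaled TPM, and reached 34.3, 38.4 and 55.3 at E95 (log2 change 4.42 ± 0.21, adjusted p = 7.0e-09). Its level at E70 was 8.74, 6.92 and 7.59, so that all 3 stages were separate. MYBPC1, the slow form, had 164, 220.1 and 191 at E60 and 196, 254 and 233 at E95 and was not called (0.25 ± 0.13). MYBPH fell from 66.4, 71.5 and 97.7 to 22.99, 16.2 and 8.96 (log2 change -2.29 ± 0.23, adjusted p = 7.8e-06). MYLK2, the kinase of the myosin light chain in skeletal muscle, rose by 1.04 ± 0.17. The fast regulatory light chain gene MYL11, also known as MYLPF and so not counted in the list, rose from 1614, 1729.8 and 1898 to 4809, 6518 and 4322 (log2 change 1.56 ± 0.17, adjusted p = 1.2e-05). Titin, the giant spring of the sarcomere, was placed by its m6A peaks at 2 gene identifiers, neither of which was called, with log2 changes of -0.07 and 0.17.

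Among 14 genes of the thin filament 7 were higher and 2 lower, all 9 with their sign kept under the 4 scalings, and the median change was 0.88 against 0.01 for all genes. TPM as deposited called 1 higher and 1 lower, quantile normalization 4 and 4, and totals without the 2 most abundant genes 7 and 5. The count of lower members was also 1 with the replicate number as a block, with a pseudocount of 0.1 and in the fit to the 6 libraries. It was 1 again without E60 replicate 2 or 3 or E95 replicate 1 or 3. The skeletal actin ACTA1 had 1591, 3001 and 2343 at E60 and 4621, 8704 and 5469 at E95 scaled TPM, and the stages did not overlap (log2 change 1.43 ± 0.25, adjusted p = 7.1e-04). The cardiac actin ACTC1, which is used in fetal skeletal muscle, had 2722, 3318 and 3555 at E60 and 2192, 2933 and 2042 at E95; its fall was small and the E60 and E95 ranges overlapped (log2 change -0.43 ± 0.14, adjusted p = 0.038). Troponin, the calcium switch on the thin filament, moved by subunit in the same way. The fast subunits TNNI2, TNNC2 and TNNT3 rose by 1.47, 1.73 and 1.07, and the slow subunits TNNI1, TNNC1 and TNNT1 were not called, with changes of -0.12 ± 0.21, -0.21 ± 0.23 and -0.61 ± 0.28. TNNT2, the cardiac troponin T of embryonic muscle, fell from 343, 435 and 478 to 104, 105 and 55.6 (log2 change -2.28 ± 0.24, adjusted p = 8.5e-06). The tropomyosins TPM1 and TPM2, which cover the actin sites, rose by 1.43 ± 0.18 and 1.25 ± 0.21.

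TMOD4, the tropomodulin that caps the pointed end of the thin filament in fast muscle, had the second largest rise of all named genes. Its scaled TPM was 8.4e-07, 0 and 2.06 at E60, 19.6, 16.9 and 18.4 at E70 and 88.5, 116 and 95.3 at E95 (log2 change 6.11 ± 0.30, adjusted p = 1.1e-08). The gene lies on chromosome 4 at 98074380 to 98079346 of Sscrofa11.1, 497 bases from SCNM1, a gene of RNA splicing. SCNM1 was listed at 8.29, 10.9 and 8.75 at E60 and at 0 in all 3 libraries of E70 and of E95. Whether reads of these neighbours were assigned alike in all libraries was not tested.

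Of 22 genes of the Z-disc and of sarcomere assembly, 11 were higher and 0 lower with median-ratio scaling, and 7 of the 11 kept their sign under the 4 scalings. The counts were 7 higher and 5 lower after quantile normalization, 6 and 6 without the 2 most abundant genes in the total, and 0 and 0 with TPM as deposited; a fit to the 6 libraries of E60 and E95 alone called 7 higher. TCAP, which ties titin to the Z-disc, rose from 287, 405 and 230.1 to 1314, 1576 and 1141 (log2 change 2.15 ± 0.25, adjusted p = 2.3e-05). MYOZ1 and MYOZ3, Z-disc partners of calcineurin, rose by 2.21 ± 0.25 and 1.84 ± 0.22, and PDLIM3, an adaptor of alpha-actinin, by 2.05 ± 0.15. DES, the muscle intermediate filament desmin, had 548, 756 and 719 at E60 and 1473, 2009 and 1203 at E95 (log2 change 1.19 ± 0.19, adjusted p = 4.2e-04). The fast alpha-actinin ACTN3 stayed low, with 3.33, 1.74 and 4.76 at E60 and 7.65, 10.7 and 10.1 at E95, and its E70 mean of 15.8 was above both stages (E95 against E60: log2 change 1.35 ± 0.33).

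Most genes that couple excitation to contraction rose. Of 18 tested, 15 were higher and 0 lower, with 10 of the 15 above E60 under all scalings, and the median change was 1.04. Quantile normalization gave 15 higher and 1 lower, totals without the 2 most abundant genes 10 and 3, and TPM as deposited 2 and 0. CASQ1, the calcium store protein of the sarcoplasmic reticulum, had 21.2, 23.4 and 36.4 at E60 and 152, 212 and 188 at E95 (log2 change 2.75 ± 0.22, adjusted p = 8.1e-07). ATP2A1, the fast-fibre calcium pump SERCA1, rose from 33.8, 43.99 and 44.1 to 244, 295 and 272 (log2 change 2.71 ± 0.14, adjusted p = 1.2e-08), with every E60 library below every E95 library. ATP2A2, the slow and cardiac pump, was not called (log2 change 0.05 ± 0.12). SLN, a small inhibitor of the pump, rose by 2.16 ± 0.15. On the surface membrane, the sodium channel SCN4A and the voltage sensor of the calcium release unit, CACNA1S, rose by 1.90 ± 0.17 and 1.34 ± 0.15. STAC3, an adaptor of that unit placed by its peaks, rose from a mean of 122 to 282 in scaled TPM (log2 change 1.19 ± 0.15), and KCNJ12, a potassium channel placed in the same way, rose from 35.9 to 142 (2.05 ± 0.34). JPH2, a junctophilin that holds the membranes of the unit together, was placed at 2 identifiers and called at neither (log2 changes of -0.14 and 0.05).

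**Figure D2:**
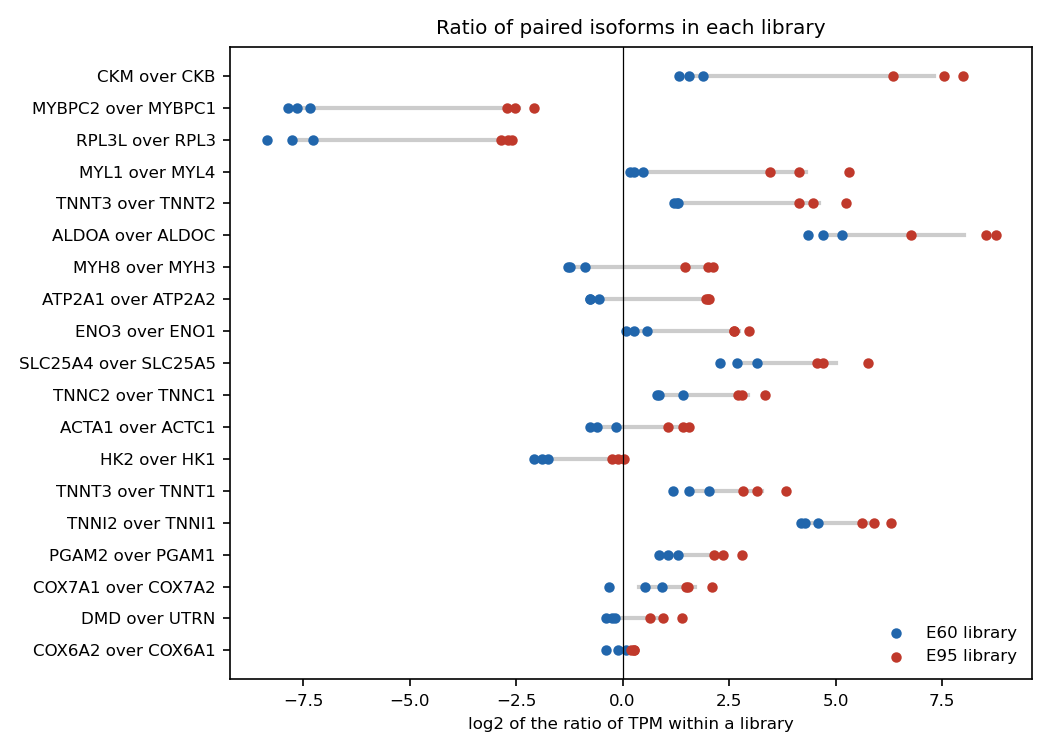
Ratio of the TPM of paired isoforms within each library (log2 scale, horizontal axis) for 19 pairs (vertical axis), with E60 libraries in blue, E95 libraries in red and a grey line between the stage means. In each of the 19 pairs every E95 library lay to the right of every E60 library, from COX6A2 over COX6A1 with ratios of 0.759 to 1.06 at E60 and 1.14 to 1.21 at E95, to CKM over CKB with 2.52 to 3.70 and 81.9 to 254.8.

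A ratio of transcripts within a library does not change when the library is rescaled, so isoform pairs were also set against each other library by library. The 24 pairs were chosen after the changes of many of these genes were known, so the direction of the ratios is not independent evidence and was not tested; 19 pairs had both members measured in all 6 libraries. MYH8 over MYH3 was 0.424, 0.415 and 0.541 at E60 and 4.34, 2.76 and 4.04 at E95, a rise of 7.99 times that turned the perinatal form from the lesser into the greater of the pair. MYL1 over MYL4 was 1.39, 1.12 and 1.21 at E60 and 10.98, 17.7 and 39.9 at E95. MYBPC2 over MYBPC1 rose 36 times but stayed below 1, at 0.00434, 0.00617 and 0.00503 at E60 and 0.175, 0.151 and 0.237 at E95. CKM over CKB rose 52.1 times, the largest of the 19, and COX6A2 over COX6A1 rose 1.3 times, the smallest. TNNT3 over TNNT2 was 2.31, 2.42 and 2.45 at E60 and 17.7, 22.1 and 37.9 at E95, and ACTA1 over ACTC1 was 0.585, 0.904 and 0.659 at E60 and 2.11, 2.97 and 2.68 at E95. As TPM is per length, these values say that skeletal actin transcripts were fewer than cardiac actin transcripts in the 3 E60 libraries and more numerous in the 3 E95 libraries. ATP2A1 over ATP2A2 turned in the same way, with 0.591, 0.584 and 0.680 at E60 and 4.06, 4.03 and 3.86 at E95. The pair of ribosomal protein genes RPL3L, the striated muscle form, over RPL3 was 0.00463, 0.00653 and 0.00306 at E60 and 0.155, 0.138 and 0.166 at E95, and the common form remained the more abundant. DMD over UTRN, dystrophin over its fetal relative utrophin, was 0.839, 0.768 and 0.890 at E60 and 1.56, 1.92 and 2.62 at E95.

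Genes of fuel supply rose too. Of 26 genes of glycolysis and glycogen, 19 were higher and 1 lower, with 15 of the 19 keeping their sign under the 4 scalings, and their median change was 0.92. With TPM as deposited 2 were higher and 0 lower, and with both top genes left out of the total 13 and 2. SLC2A4, the insulin-responsive glucose transporter GLUT4, was 1.21, 0.777 and 0.559 at E60, 4.47, 3.29 and 4.84 at E70 and 36.8, 36.3 and 35.1 at E95 (log2 change 4.34 ± 0.25, adjusted p = 4.9e-08). The 3 stages did not overlap. Of the hexokinases HK2, the muscle enzyme, rose by 0.93 ± 0.10 and HK1 fell by 0.44; the fall was not called without E60 replicate 2 or E95 replicate 3. HK2 over HK1 was 0.235, 0.270 and 0.298 at E60 and 0.930, 0.843 and 1.02 at E95, so HK1 remained the more abundant in 2 of the 3 E95 libraries. Of the enzymes in the lower part of the pathway, ALDOA rose from 47.6, 89.1 and 75.4 to 327, 526 and 355 (log2 change 2.51 ± 0.33, adjusted p = 7.3e-05), and ENO3, the muscle enolase, rose from 95.6, 101 and 126 to 519, 674 and 522 (log2 change 2.40 ± 0.17, adjusted p = 3.4e-07). The common enolase ENO1 was not called (log2 change -0.01 ± 0.15). GAPDH, often used as a reference transcript, rose from 543, 634 and 651 to 1486, 2329 and 1374 (log2 change 1.47 ± 0.17, adjusted p = 2.4e-05).

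Several genes of glycogen storage and breakdown rose. PPP1R3C and PPP1R3A, which bring protein phosphatase to glycogen, rose by 2.54 ± 0.19 and 1.93 ± 0.16. PYGM, the muscle glycogen phosphorylase, had 49.97, 52.7 and 61.04 at E60 and 141, 175 and 144 at E95 (log2 change 1.47 ± 0.13, adjusted p = 2.2e-06). GYS1, glycogen synthase, rose by 0.66 ± 0.11 and GYG1, the glycogenin primer, by 0.90 ± 0.12; the sign of GYS1 was not kept under all scalings. Creatine kinase, which buffers ATP through phosphocreatine, moved most between its isoforms. CKB, the non-muscle form, fell from 76.6, 153 and 143 to 11.7, 7.18 and 3.46 (log2 change -3.95 ± 0.33, adjusted p = 1.2e-06), the largest fall of any named gene that was above 0 at both stages. CKM, the muscle form, rose from 284, 386 and 424 to 959, 1348 and 881 (log2 change 1.54 ± 0.20, adjusted p = 5.8e-05). Of the 7 tested genes for phosphotransfer by creatine and adenylate, 5 were higher and 1, CKB, was lower, all 6 with their sign kept. TPM as deposited called 0 higher and 1 lower, totals without the 2 most abundant genes 4 and 1, and quantile normalization 5 and 1.

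Nearly all genes of oxidative metabolism were higher with median-ratio scaling. Of 34 tested genes 32 were higher and 0 lower, 23 of the 32 with their sign kept under the 4 scalings, and the median change was 0.97. The counts were 31 and 0 after quantile normalization, 16 and 1 without the 2 most abundant genes in the total, and 0 and 0 with TPM as deposited. SLC25A4, the muscle form of the carrier that exchanges ADP for ATP across the inner mitochondrial membrane, had 54.7, 63.6 and 55.2 at E60 and 303, 431 and 294 at E95 (log2 change 2.53 ± 0.18, adjusted p = 3.0e-07). COX7A1, the muscle form of a cytochrome oxidase subunit, rose from 16.6, 8.55 and 14.4 to 46.8, 58.7 and 41.9 (log2 change 1.85 ± 0.47, adjusted p = 0.0097). PPARGC1A, a coactivator known for driving mitochondrial genes, had 3.55, 7.33 and 3.43 at E60 and 11.9, 11.2 and 18.2 at E95 (log2 change 1.39 ± 0.23, adjusted p = 5.1e-04), with an E70 mean of 3.39 at the level of E60. Fatty acid entry and oxidation rose in CPT1B (1.41 ± 0.19), HADHB (1.27 ± 0.13) and ACADVL (1.16 ± 0.18). CD36, a fatty acid transporter placed by its peaks, rose from 3.87 to 12.4 in mean scaled TPM (log2 change 1.46 ± 0.20). The 2 members not called were CPT2 and SLC25A20.

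**Figure D3:**
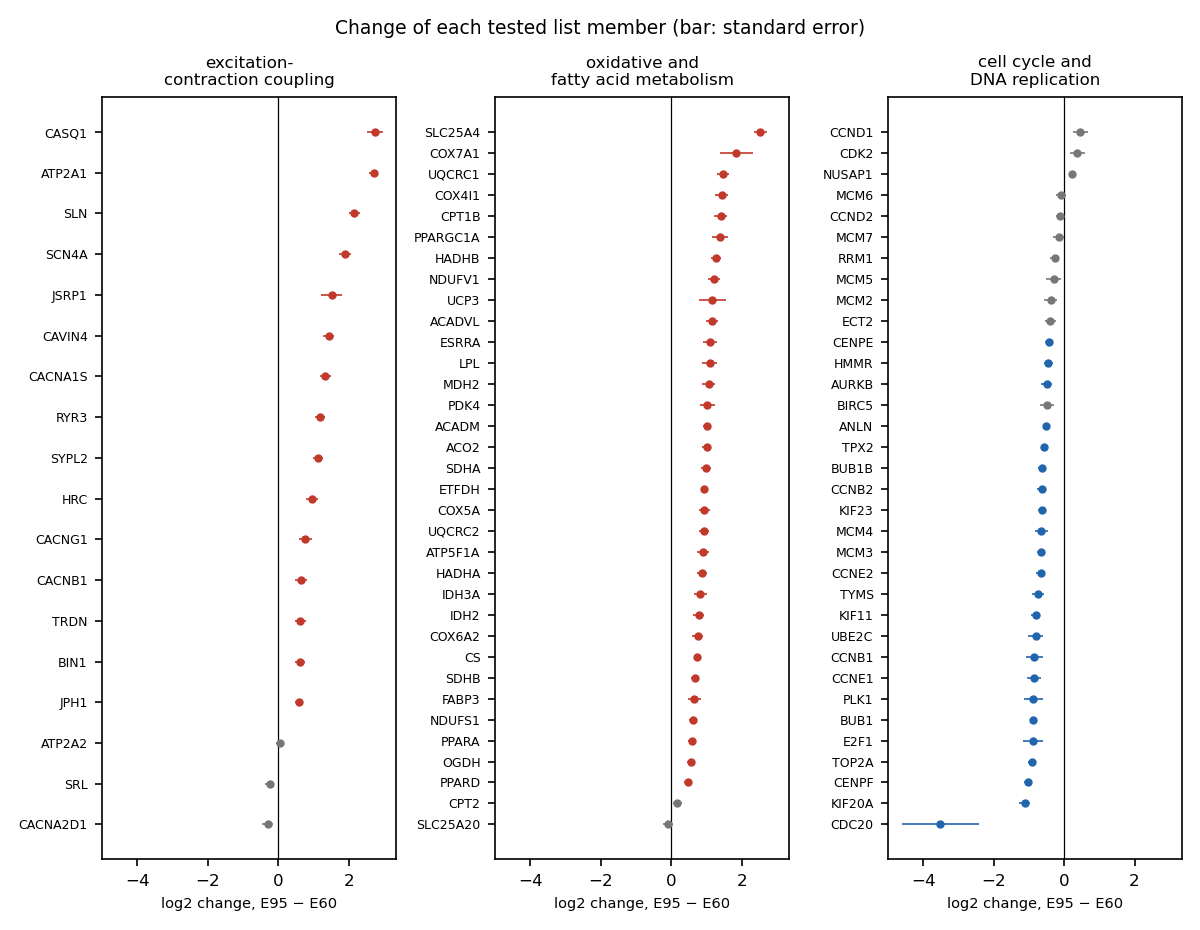
Change from E60 to E95 (log2 scale, horizontal axes) of each tested member of 3 gene lists, as points with bars of 1 standard error; red members were called higher at E95, blue ones lower and grey ones were not called. In the list of oxidative metabolism 32 of 34 points are red, and in the list of the cell cycle 23 of 34 are blue; CDC20, with the widest bar there, was listed at 0 in all E95 libraries.

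Cell cycle genes fell. Of 34 tested members, 23 were lower and 0 higher, and the median change was -0.64 against 0.01 for all genes. All 23 kept their sign under the 4 scalings, as did every gene called lower. With TPM as deposited 9 were lower and 0 higher, and with the filter at 5 TPM, which tests fewer genes, 12 were lower. TOP2A, the topoisomerase of dividing cells, had 22.3, 23.5 and 25.2 at E60 and 11.6, 12.7 and 11.9 at E95 (log2 change -0.92 ± 0.11, adjusted p = 3.9e-05). KIF20A and CENPF, proteins of the mitotic spindle and kinetochore, fell from means of 18.5 to 7.97 and from 12.8 to 5.78 scaled TPM. MKI67, the proliferation marker, was placed by its peaks and fell from 67.4 to 35.2 (log2 change -0.90 ± 0.21). Among the members not called were the replication genes MCM2, MCM5, MCM6 and MCM7. In bulk tissue, fewer dividing cells and less of each transcript per cell cannot be told apart. CDC20, an activator of the anaphase-promoting complex, was listed at 6.19, 14.99 and 11.9 at E60 and at 0 in all E95 libraries, while the E95 peak list holds a peak in it with a fold enrichment of 4.04. Its level at E95 is therefore given only as listed. Its call was lost without 1 E60 library (replicate 2 or replicate 3) and without any 1 of the E95 libraries. Of the 167 genes listed at 0 in all E95 libraries 5 had a peak in the E95 list, and of the 100 listed at 0 in all E60 libraries 0 had a peak in the E60 list.

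Of 17 genes of fetal growth, 8 were lower, 1 was higher and 8 were not called, and the median change was -0.32. The 8 lower kept their sign under the 4 scalings, as did every gene called lower. With TPM as deposited 3 were called lower. The RNA-binding proteins IGF2BP1, IGF2BP2 and IGF2BP3, which are oncofetal and read m6A, fell by 1.90, 0.63 and 0.83 on the log2 scale. IGF2BP1 had 3.98, 5.05 and 5.68 at E60 and 0.302, 0.685 and 0.777 at E95, and the stages were separate (log2 change -1.90 ± 0.15, adjusted p = 6.8e-07). The imprinted gene MEST fell from 248, 220.3 and 258 to 83.3, 68.6 and 90.3 (log2 change -1.58 ± 0.14, adjusted p = 2.7e-06), and the imprinted, retrotransposon-derived PEG10, among the most abundant named transcripts, fell from 1277, 1539 and 1744 to 872, 937 and 960.0 (log2 change -0.71 ± 0.13, adjusted p = 0.0013). IGF1, a growth factor, was the member called higher, and its sign was not kept under all scalings (log2 change 0.54 ± 0.15). It was not called without E60 replicate 1, E60 replicate 2 or E95 replicate 3.

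Regulators of myogenesis divided, with 6 higher, 7 lower and 10 not called of 23, of which 2 of the higher and 7 of the lower kept their sign under the 4 scalings. A fit to the 6 libraries alone called 2 higher and 4 lower, and TPM as deposited called 0 and 3. PAX7, the satellite cell transcription factor, had 18.5, 21.9 and 24.5 at E60 and 11.6, 12.97 and 15.8 at E95 (log2 change -0.65 ± 0.12, adjusted p = 0.0015), and MYF5 had 47.1, 84.6 and 68.5 at E60 and 25.1, 34.3 and 22.1 at E95 (log2 change -1.25 ± 0.27, adjusted p = 0.0036). SIX2 fell from 32.1, 40.1 and 16.3 to 4.53, 6.00 and 3.63 (log2 change -2.35 ± 0.50, adjusted p = 0.003), and the adhesion molecules NCAM1 and CDH15 fell by 1.5 and 0.57. MYMK, the membrane protein required for myoblast fusion, fell by 0.55. CALCR, the calcitonin receptor carried by quiescent satellite cells, rose from 0.382, 0.522 and 0.340 to 2.16, 2.24 and 2.74 (log2 change 1.25 ± 0.15, adjusted p = 2.8e-05). MYOD1 was called higher (0.79 ± 0.18), with its sign not kept under all scalings, and MYOG and MYF6 were not called (-0.36 ± 0.15 and 0.63 ± 0.30).

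At the neuromuscular junction, the synapse between motor nerve and fibre, 3 of 10 tested genes were lower and 2 higher, all 5 with their sign kept under the 4 scalings. Of all genes 12% were lower and 14.3% higher. TPM as deposited called 2 lower and 0 higher. The kinase MUSK, which organises acetylcholine receptors, had 7.22, 7.31 and 7.22 at E60 and 1.49, 1.56 and 2.01 at E95 (log2 change -1.62 ± 0.14, adjusted p = 1.7e-06), and the receptor subunit CHRNA1 had 35.4, 40.6 and 37.4 at E60 and 17.9, 17.8 and 16.5 at E95 (log2 change -1.08 ± 0.12, adjusted p = 1.4e-05). Both are expressed along the whole fibre before innervation and at the synapse afterwards. ACHE, the enzyme that breaks down acetylcholine, rose from 10.04, 11.02 and 9.50 to 23.5, 41.1 and 26.7 (log2 change 1.45 ± 0.23, adjusted p = 3.5e-04), and LAMB2, the laminin chain of the synaptic basal lamina, rose by 1.14 ± 0.17. AGRN and LRP4, the signal and its receptor upstream of MUSK, were not called (-0.11 ± 0.21 and -0.26 ± 0.10).

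In the dystrophin complex, which links the cytoskeleton to the matrix, 7 of 11 genes were called higher and 1 lower, but only SSPN, sarcospan (1.05 ± 0.12), of the 7 kept its sign under the 4 scalings. UTRN was the member called lower (-0.39 ± 0.12). The higher calls numbered 4 without E60 replicate 1 and 3 in the fit to the 6 libraries, and UTRN was not called without E60 replicate 2, E60 replicate 3 or E95 replicate 2. Of 34 genes of collagens and extracellular matrix, 5 were lower and 3 higher, shares near those of all genes; 5 and 1 of them kept their sign, and 6 were higher without E95 replicate 3. TNC, tenascin C, a matrix protein of developing tendon and muscle, fell from 18.02, 20.6 and 19.8 to 2.86, 2.50 and 1.93 (log2 change -2.58 ± 0.12, adjusted p = 7.0e-09), and VCAN and COL12A1 fell by 1.16 and 1.49. COL15A1, a collagen of the muscle basement membrane, rose from 16.5, 18.4 and 15.99 to 52.6, 53.2 and 52.9 (log2 change 1.59 ± 0.10, adjusted p = 1.2e-07). In the myostatin and TGF-beta family, 5 of 23 were higher and 5 lower, against 14.3% and 12% of all genes. None of the 5 higher kept its sign under all scalings. MSTN, the inhibitor of muscle growth, was among these (0.78 ± 0.24), and TGFB2 was the fall with the smallest adjusted p (log2 change -0.81 ± 0.10, adjusted p = 2.8e-05). The higher calls numbered 3 without E60 replicate 1 or 2 or E95 replicate 2 or 3. The lower calls numbered 2 without E60 replicate 3 or E95 replicate 3 and 3 without E60 replicate 1 or E95 replicate 2.

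Of 15 genes listed for glucocorticoid or thyroid hormone, which include the receptors NR3C1 and THRA, 10 were higher and 1 lower with median-ratio scaling. Of these, 7 and 1 kept their sign, and the median change was 0.72. TPM as deposited called 1 higher and 1 lower, with a median of -0.095. Totals without the 2 most abundant genes gave 4 and 3, and quantile normalization 10 and 1. KLF9, a target of both hormones, had 0.220, 0.352 and 0.253 at E60 and 6.60, 3.77 and 6.95 at E95 (log2 change 2.37 ± 0.22, adjusted p = 2.9e-06). TRIM63 and FBXO32, the ubiquitin ligases MuRF1 and atrogin-1 of muscle protein breakdown, rose by 1.55 ± 0.19 and 1.00 ± 0.18, and their regulator FOXO1 by 0.96 ± 0.14. KLF15 and ZBTB16, glucocorticoid-induced factors, rose by 1.10 ± 0.20 and 0.98 ± 0.15. FKBP5, another glucocorticoid target, went the other way, from 2.14, 2.13 and 1.40 to 0.425, 0.591 and 0.327 (log2 change -0.99 ± 0.13, adjusted p = 9.8e-05). Immediate early genes, which respond within minutes to stimuli and also to tissue handling, moved at the same time: 8 of 15 were higher and 1 lower, 5 and 1 with their sign kept. The higher calls numbered 3 without E60 replicate 1, E60 replicate 3 or E95 replicate 2, 5 without E95 replicate 3, and 3 in the fit to the 6 libraries. DUSP1 rose from 25.5, 36.3 and 21.1 to 90.9, 112 and 73.7 (log2 change 1.72 ± 0.24, adjusted p = 1.1e-04). JUNB was listed at 0, 17.9 and 0 at E60, at 0 in all E70 libraries and at 32.6, 58.1 and 31.03 at E95, so its change rests partly on values of 0. The part of handling in these changes was not tested.

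**Figure D4:**
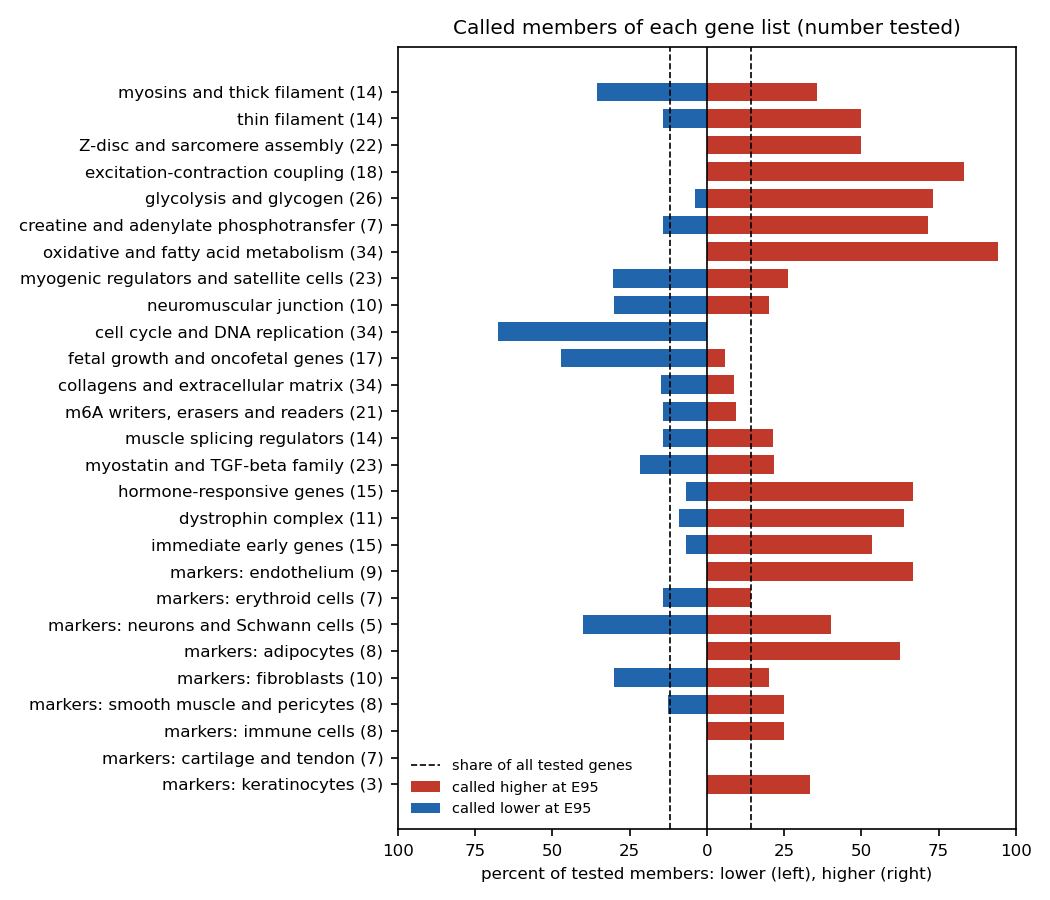
With median-ratio scaling, share of the tested members of each of 27 gene lists that were called higher (red, to the right) or lower (blue, to the left) at E95, in percent, with the number tested in parentheses; dashed lines mark the shares of all tested genes, 14.3% and 12%. Oxidative metabolism, excitation-contraction coupling and glycolysis reach farthest to the right, the cell cycle farthest to the left, and the m6A machinery lies near the lines. The lists were chosen with earlier results of these data known.

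Markers of other cell types were also read, since the muscle was bulk tissue. These lists are short, and of all genes 14.3% were called higher and 12% lower. The adipocyte markers rose most: 5 of 8 tested were higher and 0 lower, all 5 with their sign kept (3 higher without E95 replicate 1), and the summed scaled TPM of the list was 20.4 to 49.9 at E60 and 125.4 to 214.1 at E95. CFD, the adipocyte protein adipsin, was listed at 0 in all E60 libraries and at 20.8, 50.8 and 50.9 at E95. ADIPOQ, adiponectin, was 0, 0 and 0.0834 at E60 and 30.6, 2.48 and 2.21 at E95, where replicate 1 was far above the others, as it was for PLIN1, the coat protein of lipid droplets, at 17.3, 2.69 and 1.23 and listed at 0 in all E60 libraries. LPL and CD36, counted among the oxidative genes, are expressed by adipocytes and capillaries too. Endothelial markers were higher in 6 of 9, 2 of them with their sign kept, and in 3 without E60 replicate 1 or in the fit to the 6 libraries, with sums of 74.2 to 110.9 at E60 and 149.5 to 179.6 at E95. Fibroblast markers were higher in 2 and lower in 3 of 10, 1 and 3 with their sign kept, with sums of 348.2 to 367.8 and 247.0 to 306.4; SFRP2 and DPT fell by 1.73 and 1.59. Of 7 erythroid markers 1 was higher and 1 lower, both with their sign kept, with sums of 808.2 to 1725 and 474.4 to 868.2, of which the globin HBB made up most (1669, 766 and 1155 at E60 and 599, 821 and 440.0 at E95). Of 5 neuronal and Schwann cell markers 2 were higher and 2 lower, all 4 with their sign kept, with sums of 75.8 to 94.0 and 49.3 to 111.3; ERBB3, a neuregulin receptor, fell from 47.2, 49.4 and 67.5 to 11.5, 8.99 and 11.2. Markers of smooth muscle were called higher in 2 and lower in 1 of 8, of immune cells in 2 and 0 of 8, of cartilage and tendon in 0 and 0 of 7 and of keratinocytes in 1 and 0 of 3; among these calls 1 of the 2 in immune cells did not keep its sign. Leaving out single libraries moved several of these small counts: higher fibroblast markers to 1 without any 1 of the E60 libraries or E95 replicate 1 or 3, lower neuronal and Schwann cell markers to 1 without E60 replicate 1 or 2 or E95 replicate 1 or 3, higher smooth muscle markers to 1 without E95 replicate 1 or 2, and higher immune markers to 1 without E60 replicate 3 or E95 replicate 1 or 2. Without E60 replicate 1 there were 2 lower smooth muscle markers, and without E60 replicate 3 there were 2 lower cartilage and tendon markers. The sums were 175.0 to 214.4 and 136.6 to 186.8 for smooth muscle, 49.1 to 58.6 and 59.0 to 90.7 for immune cells, 113.8 to 343.5 and 131.8 to 179.2 for cartilage and tendon, and 6.58 to 9.74 and 7.62 to 19.8 for keratinocytes. The keratinocyte gene KRT1 was listed at 0 in all 6 libraries, and the T cell gene CD3E was at 0 in all E60 libraries and at 0, 0.261 and 0.0982 at E95. The part of these cells in the changes of other lists was not tested.

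The rule for named genes, by size of change, added genes outside the lists. MYO3B, an unconventional myosin with a kinase domain, had the largest rise (log2 change 6.99 ± 0.09, adjusted p = 1.1e-15). It was listed at 0.121, 0.123 and 0.126 at E60, 114, 152 and 126 at E70 and 129.9, 149.7 and 146 at E95, so that E70 and E95 overlapped and both stood far above E60. KLHL33, a kelch protein, rose from 0, 0.242 and 0.348 to 23.00, 19.5 and 41.8, and RPL3L from 0.945, 1.63 and 0.728 to 28.7, 31.7 and 23.4. NHERF2, a scaffold protein, was at 9.05 in replicate 1 and near 0 in both other libraries at E60 and at 42.3, 53.4 and 27.6 at E95. JPT1 fell from 28.7, 34.7 and 33.98 to 4.90, 1.38 and 0.912 (log2 change -3.48 ± 0.29, adjusted p = 1.4e-06), and DCX, a microtubule protein of migrating neurons, from 8.15, 7.20 and 6.97 to 0.362, 0.312 and 0.471 (log2 change -2.61 ± 0.13, adjusted p = 1.3e-08). Another 3 falls rest on scattered values: ANGPTL6 was 25.8, 18.8 and 14.2 at E60 and 0, 8.84 and 0 at E95, CHRM3, a muscarinic receptor, was 11.2, 7.70 and 13.96 at E60 and 0, 0 and 2.84 at E95, and RUSC1 was 5.66, 1.22 and 15.1 at E60 and 0.00163, 0.00172 and 0.00131 at E95. Of the genes listed at 0 at E60, ROMO1, a mitochondrial membrane protein, was at 17.5, 80.5 and 10.1 at E95 and PRR33 at 13.2, 17.05 and 17.4, both called, whereas NRARP, at 25.03, 0 and 11.4, was not. Of those listed at 0 at E95, GPR153 was at 10.5, 5.38 and 7.75 at E60 and was called, and SCX, the tendon transcription factor scleraxis, at 37.5, 16.6 and 0, was not. Of other list members placed by their peaks, RRM2 of DNA replication fell by 0.61, GLUL, glutamine synthetase, rose by 0.66, and TPM3 (-0.62 ± 0.31), DOK7, SRPK3, RBM24, THY1, TIMP2 and SOX17 were not called; LAMA2 was called at 1 of its 2 identifiers (0.39 ± 0.12). No fold is given for genes at 0, since the files hold no counts that would bound it.

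Genes of the m6A machinery were called about as often as all genes. Of 21 tested writers, erasers and readers, 2 were higher and 3 lower, and the median change was 0.03. METTL3, the catalytic writer, had 7.40, 7.85 and 9.30 at E60 and 9.91, 8.37 and 8.75 at E95, and METTL14, its partner, had 6.07, 5.79 and 5.68 at E60 and 5.31, 5.62 and 7.11 at E95; neither was called (0.13 ± 0.12 and 0.03 ± 0.11). The erasers FTO and ALKBH5 were not called (-0.19 ± 0.09 and 0.35 ± 0.14). The 2 called higher, METTL16 (0.37 ± 0.07) and VIRMA (0.30 ± 0.10), changed sign under another scaling, and 1 was called without E60 replicate 1, 2 or 3 or E95 replicate 1 or 2. The 3 called lower were IGF2BP1, IGF2BP2 and IGF2BP3, given above with the fetal growth genes. Among 14 splicing regulators of muscle 3 were higher and 2 lower, against 14.3% and 12% of all genes, and 2 and 2 kept their sign. RBM38 (1.30 ± 0.18) and RBFOX1 (0.99 ± 0.12) rose and MBNL3 fell by 0.66. The lower count was 1 without E60 replicate 1 or 3 or E95 replicate 1 or 2.

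The E60 list held 7545 peaks in 4278 genes and the E95 list 8109 in 4598, with a median fold enrichment, as the authors' caller gave it, of 4.06 and 4.42. There is 1 list per stage and no replicate, so differences between the lists have no test. Of the E60 peaks 76.4% overlapped an E95 peak by at least 1 base over their exon blocks, and of the E95 peaks 71.4% overlapped an E60 peak. The lists were alike in position: by their midpoints 20.5% and 19.5% lay within 200 bases of a stop codon in RefSeq transcripts, 57.6% and 58.7% elsewhere in coding sequence and 9.75% and 9.43% in the rest of the 3′ UTR. Of 2321 peaks in the E95 list alone 44.2% overlapped a peak of the E70 list, and of 1781 in the E60 list alone 54.1% did. Peaks shared 1 to 1 between the lists numbered 5235, with median folds of 4.07 at E60 and 4.61 at E95. The fold at least doubled for 318 of these and fell by at least that factor for 97.

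The sequences under the peaks were read for GGACT, the most common form of the m6A motif, on the transcript strand. In windows of 101 bases around the midpoint, 18.7% of shared E60 peaks and 19.1% of shared E95 peaks held it, as did 22.9% of the peaks in the E60 list alone and 15.6% of those in the E95 list alone. Windows of the same length outside peaks in the same 4727 transcripts held it in 8.41%. The reverse complement AGTCC was found in 7.94% to 8.71% of the peak windows and in 8.10% outside. The sites below are the GGACT nearest the midpoint of the strongest placed peak, with 10 bases on each side, for genes called in the comparison; capitals mark the motif, and each line is the transcript strand in Sscrofa11.1. They show examples of peaks in the E95 list alone (TMOD4, FOXO1, ZBTB16), in the E60 list alone (CDH15, DPT) and in both (TCAP, SCN4A, RBM38, TNC). Sites are printed only where a peak held GGACT, so they do not show how often peaks hold it. A match is a description of the letters and does not show that the site is methylated.
TMOD4 (chr4:98075699-98075703, + strand, coding sequence): tagagcagctGGACTgcgagctaca
FOXO1 (chr11:15321651-15321655, - strand, coding sequence): ctgtgcagcgGGACTcttgaaggag
ZBTB16 (chr9:41834038-41834042, + strand, 3′ UTR): acgtccagaaGGACTgtgcaaaaac
CDH15 (chr6:636530-636534, - strand, 3′ UTR): tggacacgctGGACTgggctgtgtg
DPT (chr4:82319052-82319056, + strand, 3′ UTR): tcagagaatgGGACTcaaattagga
TCAP (chr12:22652095-22652099, - strand, 3′ UTR): tgcctgccctGGACTgggcccttcc
SCN4A (chr12:15045458-15045462, + strand, coding sequence): gccgcctctcGGACTtcgtggacac
RBM38 (chr17:57796863-57796867, + strand, 3′ UTR): tctggagagaGGACTtcgagaggaa
TNC (chr1:255596772-255596776, - strand, coding sequence): tcgagggtgaGGACTgcggtgagct

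Each of these peaks has its own height. TMOD4 had its single peak at a fold of 2.19 in the E95 list, with 2 GGACT in it, and its transcript was near 0 in the E60 libraries. FOXO1 reached 7.23 and ZBTB16 9.62 in the E95 list. CDH15, at 3.14 in the E60 list with 2 GGACT, and DPT, at 2.11, were called lower at E95. For SCN4A, whose transcript rose, the strongest peak had a fold of 23.7 at E60 and 8.38 at E95. For TNC, whose transcript fell, it had 9.67 and 21.4, with 9 and 6 GGACT. The TNC intervals differ, with 1140 bases at E60 and 690 at E95. A further E95 peak of TNC, at a fold of 6.64, also overlapped the E60 peak, so folds and motif counts are not of 1 interval. RBM38 had 7.09 and 6.68. These folds are the authors' own values per peak, 1 per stage.

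Among the 12829 tested genes, 3568 had a peak in both lists, 915 in the E95 list alone, 609 in the E60 list alone and 7737 in neither. Genes with a peak in the E95 list alone were called higher in 27.5% and lower in 4.48%, with a median change of 0.18. Those with a peak in the E60 list alone were called higher in 4.43% and lower in 26.6%, with a median change of -0.15. Genes with a peak in both lists were called higher in 16.3% and lower in 15.0%, close to the 14.3% and 12% of all genes. The order was the same in 4 ranges of expression. Between 5 and 20 scaled TPM, for example, 25.1% of 414 genes with an E95 peak alone were higher and 4.11% lower, against 5.03% and 21.5% of 298 genes with an E60 peak alone. With only the peaks above the median fold of their list, the shares were 17.4% and 11.07% for 894 genes with a peak at E95 alone and 8.73% and 19.3% for 710 with a peak at E60 alone. The peak lists and the expression values share the input libraries, and the share of genes with no peak in either list fell from 77.5% at 1 to 5 scaled TPM to 43.1% at 100 or more. The part of read coverage in these shares was not tested.

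**Figure D5:**
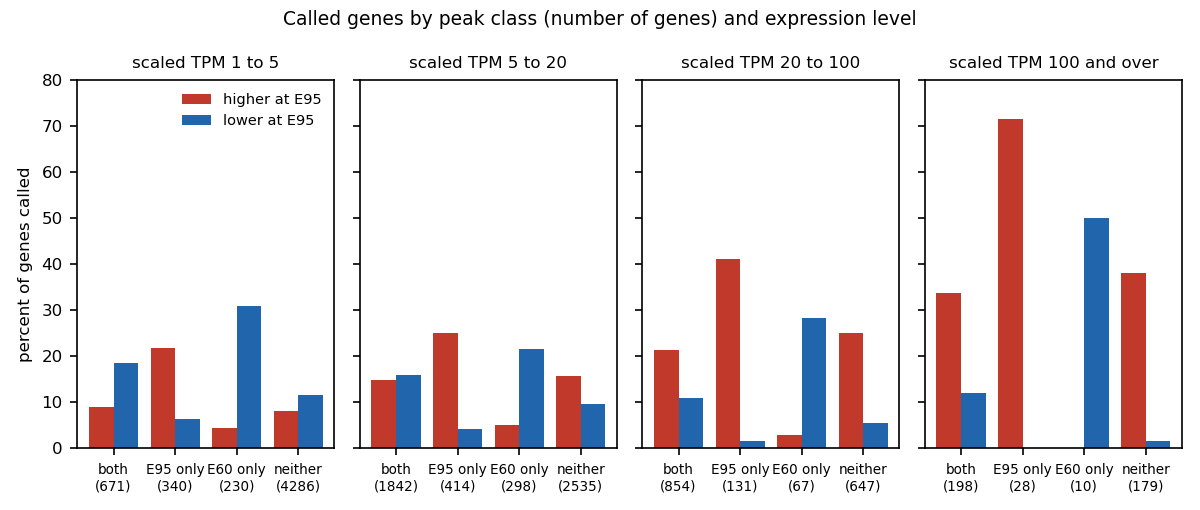
Percent of genes called higher (red) or lower (blue) at E95 by whether the gene had a peak in both lists, in the E95 list alone, in the E60 list alone or in neither, in 4 panels of mean scaled TPM, with the number of genes in parentheses. In each panel the red bar is the taller for genes with a peak at E95 alone and the blue bar for genes with a peak at E60 alone; the last panel rests on 28 and 10 such genes.

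Of all tested genes 60.3% had a peak in neither list. By gene list, a peak in at least 1 of the lists was held by 16 of 18 genes of excitation-contraction coupling (88.9%) and by 29 of 34 of the matrix (85.3%), by 57.1% of the 7 creatine and adenylate genes, by 34.6% of the 26 of glycolysis, by 29.4% of the 34 of oxidative metabolism and by 26.5% of the 34 of the cell cycle. Of the 15 hormone-responsive genes 5 had a peak in the E95 list alone, namely FBXO32, FOXO1, KLF15, KLF9 and ZBTB16. All 5 were called higher, as were 10 of the 15 in the whole list. Of all tested genes 7.13% had a peak in the E95 list alone, and 27.5% of those were called higher. CACNA1S, CASQ1, BIN1 and SYPL2 of the coupling list, PYGM and GAPDH of glycolysis, and PPARGC1A, ETFDH, HADHA and COX5A of oxidative metabolism were also in the E95 list alone, and each was called higher. Most members of these lists were called higher with or without such a peak (15 of 18, 19 of 26 and 32 of 34 in all). MYL4, MYBPH, PAX7, CDH15, MYMK, CHRNA1 and MEST had a peak in the E60 list alone, and each was called lower. Other genes went against this order: COL12A1, EYA1 and NEFL were called lower with a peak in the E95 list alone.

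Genes with a symbol and a mean of at least 1 TPM at each stage were ranked by peak fold. Those with the highest folds in 1 list alone were not among the expression changes. In the E95 list ADGRG1, an adhesion receptor, had a peak at a fold of 50.8 in its 3′ UTR (chr6:19570326-19570535). HEY1, a Notch target, had 1 at 27.0 in its coding sequence (chr4:56862180-56862449). LACC1 had 1 at 25.9, which fell in an intron or non-coding exon by RefSeq. In the E60 list ZFPM1, a partner of GATA factors, reached 27.2, ZFAT 26.7 and CUTC 25.6. By that rule all 6 were expressed at both stages, and none was called. ADGRG1 had 1.00, 1.28 and 1.48 scaled TPM at E60 and 1.60, 1.82 and 1.36 at E95. HEY1 had 6.37, 7.30 and 6.80 at E60 and 5.60, 7.24 and 4.73 at E95. ZFAT and CUTC were low too, with means of 1.93 and 1.98 at E60 and 1.74 and 2.82 at E95. The part of low input levels in these folds was not tested. All 6 genes had a peak in the E70 list, with highest folds of 5.04 to 10.3, though not all at the same site. Ranked by the lower of the folds of a shared peak in the E60 and E95 lists, the highest were SOCS3, an inhibitor of cytokine signalling, with 22.8 at E60 and 21.7 at E95, CBLL1, a member of the m6A writer complex, with 23.1 and 19.1, and POMGNT2, which glycosylates dystroglycan, with 19.8 and 18.5. The same TPM rule applied to these 3, and none was called in expression (SOCS3 0.35 ± 0.27, CBLL1 0.29 ± 0.17, POMGNT2 0.25 ± 0.36). SOCS3 and POMGNT2 had no peak in the E70 list. No GGACT lay in the E60 or E95 peaks of ADGRG1, HEY1, ZFAT, CUTC, SOCS3, CBLL1 and POMGNT2, nor in the strongest peak of ZFPM1. The second peak of ZFPM1 held 1, and the LACC1 peak was not read for the motif.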

How the data were processed

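RNA-seq of 6 input libraries (E60 and E95, 3 each) and the peak lists of both stages were used; the fit also took the 12 input libraries of the other 4 stages. The authors deposited TPM per gene, 1 file per library, and peak lists with a fold enrichment (a ratio of immunoprecipitate to input) and exon blocks, 1 list per stage. Per the submitters' processing notes, Trimmomatic, HISAT2 and Sscrofa11.1 were used; the quantifier, the peak caller and whether replicates were pooled for it are not given in the sources used here. TPM was divided by median-ratio size factors and fitted as log2(value + 1) with limma 3.58.1 in R 4.3.3 (lmFit with 1 mean per stage, eBayes with trend), with Benjamini-Hochberg adjustment over 12829 genes, and tested on simulated data. Peaks were placed on RefSeq transcripts with Python 3.11.15 and pysam 0.24.0. List members, the comparison and the 27 gene lists were chosen with earlier results of these data known. Members with no match by symbol or by peaks gave no value, among them RYR1, IGF2, CHRNG, CHRND and RAPSN. Genes named outside the lists were those called with the largest changes in each direction, with genes listed at 0 in 1 stage ranked apart by the other stage's mean. Genes named by peak fold had a mean of at least 1 TPM at each stage. Alternatives covered scaling, pseudocount, filter, libraries, replicate number and peak fold.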

Additional observations from a re-analysis of the deposited data

How the results depend on the processing

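The counts of called genes depended most on the scaling of the libraries. Against 1837 genes higher and 1545 lower, TPM as deposited gave 63 and 515 (543 calls shared), and library totals taken without the 2 most abundant genes gave 557 and 5385 (2101 shared); quantile normalization gave 1442 and 1889 (2884 shared). A filter at a mean of 5 TPM tested 7121 genes and called 1289 higher and 844 lower, and a fit to the 6 libraries of E60 and E95 alone, which has fewer samples behind the spread, gave 1205 higher and 957 lower. Leaving out 1 library of E60 or E95 at a time gave 1402 to 1660 higher and 1116 to 1484 lower. E40 replicate 2 and E50 replicate 3, which were part of the fit, had the lowest size factors, 0.471 and 0.304. A fit without them gave 1976 higher and 1682 lower. The replicate numbers did not pair the samples (correlations of same-numbered deviations of -0.00986, 0.0306 and 0.0522), and a fit with the replicate number as a block gave 1760 higher and 1458 lower. Among single genes, ANGPTL6 was no longer called without E95 replicate 1 or 3, RUSC1 without E60 replicate 3, and JUNB and ANGPTL6 in the fit to 6 libraries; NRARP was called without E95 replicate 2, and SCX without E60 replicate 3 or without the 2 most abundant genes. With overlap of at least 50% of both peaks, 62.0% of E60 and 57.7% of E95 peaks were shared, and among peaks above the median fold 62.9% and 59.0%. That fold limit left 1917 genes with a peak in both lists, and the filter at 5 TPM left 560 genes with a peak at E95 alone and 378 at E60 alone. The cause of these shifts was not tested. Depth is unknown from TPM, so genes listed at 0 and genes of low level carry an uncertainty that cannot be given.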

Other observations

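The 13 protein-coding genes of the mitochondrial genome, which form a complete set but were grouped after their values were seen, rose with the nuclear genes of oxidative metabolism. Of the 13, 12 were called higher at E95 and 0 lower in limma, with ND4 not called, and the median log2 change was 1.56 (0.67 with TPM as deposited). ND1, a subunit of complex I, had scaled TPM of 916, 652 and 580.0 at E60 and 4162, 5203 and 4468 at E95 (log2 change 2.71 ± 0.23, adjusted p = 1.4e-06), and COX1, the catalytic subunit of cytochrome oxidase, had 5118, 5719.6 and 4199 at E60 and 11805, 14216 and 11557 at E95 (log2 change 1.33 ± 0.19, adjusted p = 1.6e-04). ATP6, a subunit of ATP synthase, had log2 changes of 0.92 ± 0.24 after median-ratio scaling, 0.03 as deposited and -0.69 after quantile normalization. Among nuclear genes taken by their symbols, 28 of 36 beginning with NDUF (complex I and its assembly factors), 6 of 6 with UQCR (complex III) and 10 of 11 with ATP5 (ATP synthase) were higher and 0 were lower in each group, with median changes of 0.84, 1.16 and 1.30. Of these 17, 6 and 9 kept their sign under the 4 scalings. Of 43 cytosolic ribosomal protein genes, 22 were higher and 0 lower, but only 4 kept their sign, and the median was 0.53 with median-ratio scaling and -0.34 as deposited.

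Cytoskeletal and early-lineage genes outside the lists, picked by their values, fell. NES, the intermediate filament nestin of immature fibres and progenitors, had 2385, 3170.4 and 3761 at E60 and 1316, 1491 and 1319 at E95 (log2 change -1.15 ± 0.17, adjusted p = 2.1e-04). VIM, vimentin, had 1005, 1320.3 and 1151 at E60 and 446, 487 and 258 at E95 (log2 change -1.59 ± 0.22, adjusted p = 1.2e-04), STMN1, a microtubule destabiliser, fell from 50.8, 76.04 and 84.1 to 19.7, 22.5 and 16.9 (log2 change -1.76 ± 0.19, adjusted p = 1.2e-05), and the transcription factor SOX11 fell from 262, 370.3 and 329 to 108, 151 and 106 (log2 change -1.39 ± 0.21, adjusted p = 2.0e-04). All 4 were below E60 under all 4 scalings, as was every gene called lower. EEF1A2, the muscle and neuron form of elongation factor 1A, rose from 43.1, 66.7 and 38.6 to 288, 578 and 412 (log2 change 3.06 ± 0.28, adjusted p = 2.8e-06), and HEPACAM, an adhesion molecule, from 153, 222 and 209 to 1977, 1414 and 1238 (log2 change 2.97 ± 0.48, adjusted p = 3.7e-04).

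The largest fall of all tested genes was that of ENSSSCG00000035520, which has no symbol here. It was listed at 1819, 1903 and 1662 scaled TPM at E60 and at 0 in the 3 libraries of E70 and the 3 of E95.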
